A study of Arabidopsis thaliana with 28 samples.

Results

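For each transcript, the ratio of its nuclear to its cytoplasmic level was taken in mos11 and in Col-0 rosettes of Arabidopsis thaliana, and the mos11 ratio was set against the Col-0 ratio. All 18 libraries of the study enter this comparison: 5 nuclear and 5 cytoplasmic libraries of the mos11 mutant, 4 nuclear and 4 cytoplasmic libraries of Col-0, the wild-type accession. Plants were 14 days old and grew in long days on soil or on MS medium, and nuclei and cytoplasm were separated by differential centrifugation; the labels name the mutant without its allele and report no treatment for any group. Of 30901 loci counted, 16207 carried enough reads to be tested. A positive ratio change, on the log2 scale, means that the transcript's RNA lay more in the nucleus, relative to the cytoplasm, in mos11 than in Col-0.

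Messenger RNA leaves the nucleus through nuclear pores after it has been capped, spliced and polyadenylated. The TREX complex, built on the THO proteins and the helicase UAP56, couples transcription and splicing to export, and MOS11, the plant relative of the human protein CIP29, is one of its partners. In mos11 plants polyadenylated RNA accumulates in nuclei, as shown by in situ hybridisation, and the series was set up to look for export defects in the mutant. A ratio within libraries cannot report a shift shared by all transcripts, because each library is scaled to its own total, so the values below compare transcripts with each other.

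Nuclear libraries held 1966574 to 18213517 counts in mos11 and 2547560 to 3719008 in Col-0, and cytoplasmic libraries held 907270 to 1280371 in mos11 and 556016 to 1160001 in Col-0. The spread between replicates, as the biological coefficient of variation, was 6.16% in mos11 nuclei and 10.8% in mos11 cytoplasm, against 17.9% in Col-0 nuclei and 23.7% in Col-0 cytoplasm. Nothing in the labels ties replicates to separate plants; the tests therefore weigh differences against library-to-library variation, which may be technical. The 8 leaf markers, genes of carbon fixation and light harvesting, took 0.877 to 1.02% of all counts in mos11 nuclei and 0.574 to 0.849% in Col-0 nuclei, and 5.18 to 5.64% in mos11 cytoplasm and 4.89 to 6.01% in Col-0 cytoplasm. Flower and seed markers took at most 0.000992% in mos11 libraries and 0.00108% in Col-0 libraries, with LEC1 at 0 in all 18 libraries. Guard cell markers took a larger share of counts in mos11 than in Col-0 in both fractions, 0.137% against 0.102% in nuclei and 0.045% against 0.022% in cytoplasm. In bulk tissue, fewer cells of a type and less RNA per cell cannot be told apart.

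MOS11 itself (AT5G02770, chromosome 5, 627034 to 629280 in RefSeq's TAIR10.1, minus strand) had the smallest p-value of the comparison and, among the genes called, the largest change toward a higher ratio. Its transcript was nearly as abundant in mutant as in wild-type nuclei, and almost missing from mutant cytoplasm. In CPM, counts scaled by library total and TMM factor, it measured 183, 166, 170, 166 and 158 CPM in mos11 nuclei, against 202, 200, 227 and 193 CPM in Col-0 nuclei. Its cytoplasmic values were 4.61, 7.26, 10.7, 11.1 and 7.84 CPM in mos11, against 118.27, 86.41, 126.03 and 100.35 CPM in Col-0. All mos11 libraries lay below all Col-0 libraries in both fractions, by little in nuclei and by a fitted 13.3-fold in cytoplasm. The nuclear level was 20.5 times the cytoplasmic level in mos11 and 1.87 times in Col-0, a ratio change of 3.45 ± 0.23 (SE, 5 against 4 libraries per fraction) with an adjusted p of 1.8e-10 by edgeR's quasi-likelihood test. The genotype difference alone was -0.28 in nuclei (adjusted p = 0.0546) and -3.73 in cytoplasm (adjusted p = 5.8e-13). On the opposite strand the gene overlaps AT5G02760, and the same holds of G6PD3, RAB18, AT5G51190, TCH3, TCH2, RS2Z32, AT3G11230, AT4G04565, AT4G22485, AT4G22505, AT4G22517, PORB, LHCB2.3, CAB1, LHB1B2, PSAG, DCL1 and INO80 with neighbours of theirs. Whether the counting used strand is not stated, so reads of such a pair cannot be told apart.

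Across the 16207 genes tested, the ratio was higher in mos11 for 107 (0.660%) and lower for 149 (0.919%) at an adjusted p below 0.05 in edgeR, in a model that does not pair libraries. With a replicate block within genotype, edgeR called 326 higher and 303 lower, all 107 and 146 of the 149 among them. The split between the directions also moved with the scaling: with DESeq2's size factors in place of TMM factors, edgeR called 142 higher and 109 lower, as the median change over all genes moved to -0.0367 against -0.091 with TMM. All 107 and all 149 kept their direction under that scaling. Over 2-fold changes made up 40 of the 107 and 89 of the 149. Against a minimum change of 1.5-fold, the calls were 5 higher and 3 lower: MOS11, UBC11, AT3G10020, TCH3 and FBP among the higher, and AT2G35750, AT1G60200 and AT2G39580 among the lower. Of the 53 called genes named by rule, 26 were called in every other fit of single genes (size-factor scaling, DESeq2 where it gave an adjusted p, limma voom, the replicate block within genotype, and each library left out), and such genes are described below as called in every fit; 27 lost the call in at least 1 and none changed sign.

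**Figure D1:**
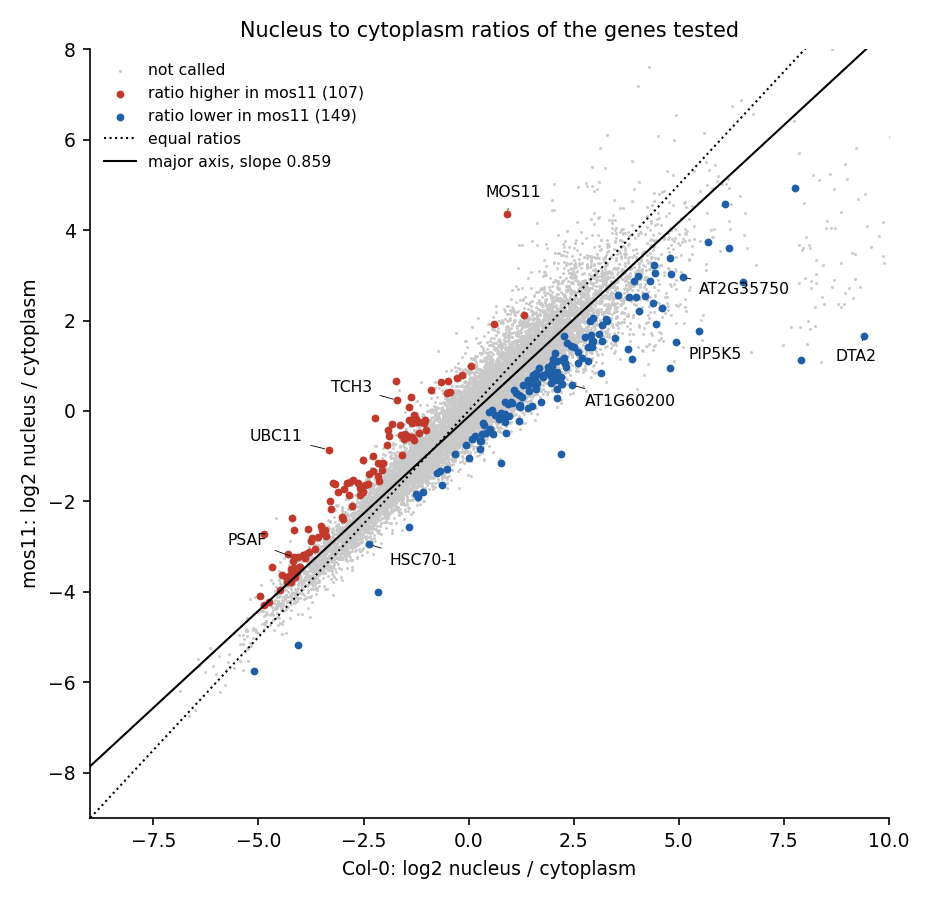
Each point is a gene: the x axis gives its log2 nucleus-to-cytoplasm ratio in Col-0 and the y axis the ratio in mos11. Red marks genes called higher in mos11 and blue genes called lower, drawn at any level. Of these, 106 of 107 and 147 of 149 had a mean log2 CPM of 3 or more. Grey marks the other genes at or above that level. The dotted line marks equal ratios and the solid line the major axis with its slope of 0.859; red points gather at the cytoplasmic end and blue points at the nuclear end, and MOS11 lies apart at 4.35 in mos11 and 0.90 in Col-0.

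Ratios were narrower in mos11 as a whole. They had a standard deviation of 1.79 in mos11 and 2.06 in Col-0, and the major axis of mos11 on Col-0 ratios over 13499 genes whose mean log2 CPM was 3 or more had a slope of 0.859. The median change went in opposite directions at the ends. It was 0.213 for genes with a mean ratio below -4, 0.156 for those between -4 and -2, and -1.27 for those above 4. Of the 206 genes below -4, 9 were called higher and 2 lower, and of the 1695 between -4 and -2, 48 higher and 2 lower. Of the 237 above 4 none was called higher and 8 lower. The slope was 0.804 to 0.879 with single libraries left out, and the lowest value came without Col-0 cytoplasm replicate 3. It also depends on the line, being 0.918 when Col-0 ratios are regressed on mos11 ratios. The ratio change and the Col-0 ratio use the same Col-0 libraries, which spread more widely, so the slope is a description; how much of the narrowing that spread accounts for was not tested.

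Measured against that line, 79 genes lay higher in mos11 (0.487% of those tested) and 61 lower (0.376%) at an adjusted p below 0.05 in edgeR. Of the 107 genes with a higher ratio, 46 also lay above the line, and of the 149 with a lower ratio, 27 also lay below it. With the replicate block within genotype the counts against the line were 335 and 255. MOS11 was 3.70 above it, with an adjusted p of 7.3e-12. The counts of 79 and 61 moved with single libraries: leaving out 1 gave 26 to 168 higher and 27 to 209 lower, the extremes being reached without mos11 cytoplasm replicate 2, Col-0 cytoplasm replicate 3, mos11 nucleus replicate 2 and again Col-0 cytoplasm replicate 3.

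Transcripts with a higher ratio in mos11 were mostly cytoplasmic in Col-0, a ratio that enters the change itself, so the counts describe the set. In mos11, 81 of the 107 were called cytoplasmic and 10 nuclear, against 101 and 3 in Col-0; among all genes tested, 35.3% were called cytoplasmic and 40.8% nuclear in mos11, against 32.8% and 40.6% in Col-0. Their median ratio was -1.58 in mos11 and -2.59 in Col-0. The change came mostly from the cytoplasm: 73 were lower in mos11 cytoplasm with no call in nuclei, and 22 were higher in mos11 nuclei with no call in cytoplasm. A further 5 were called in both fractions in opposite directions, and 7 fell in both. Among all genes tested, 6.40% were called lower and 6.02% higher in mos11 cytoplasm, and 10.9% lower and 9.14% higher in mos11 nuclei.

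Transcripts with a lower ratio were mostly nuclear in Col-0. In mos11, 99 of the 149 were called nuclear and 29 cytoplasmic, against 128 and 13 in Col-0. Their median ratio was 0.77 in mos11 and 1.97 in Col-0. Higher cytoplasmic levels in mos11 with no nuclear call accounted for 72, lower nuclear levels with no cytoplasmic call for 46, and both together for 21. In 8 the RNA was higher in mos11 in both fractions, in 1 lower in both, and 1 had no call in either.

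**Figure D2:**
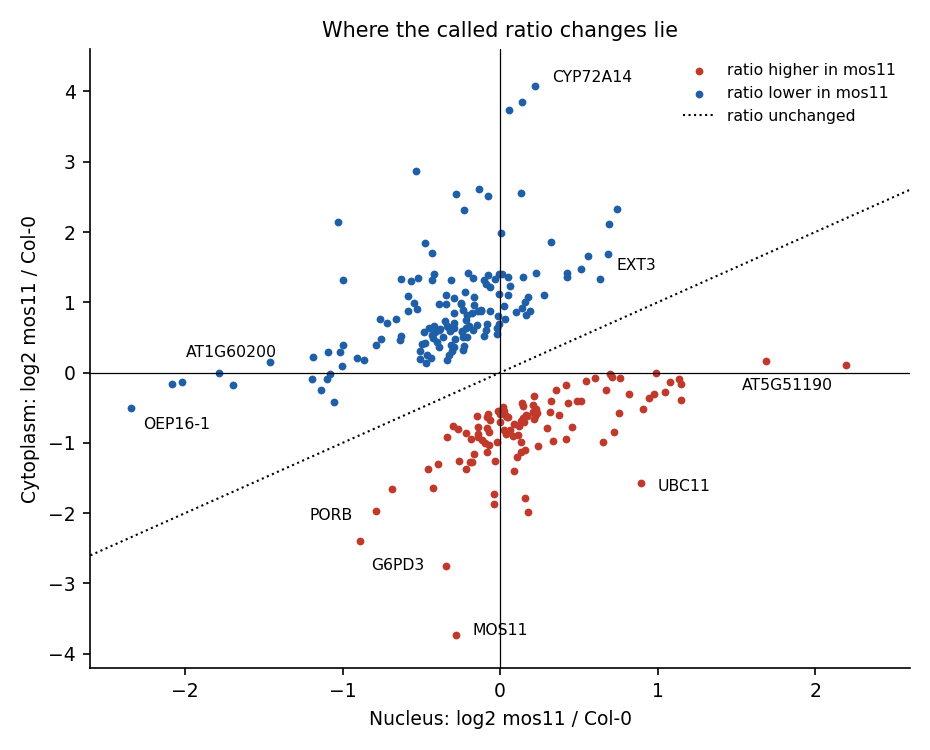
Genes called for a ratio change are placed by their log2 level in mos11 over Col-0 in nuclei (x axis) and in cytoplasm (y axis), red for a higher and blue for a lower ratio in mos11; on the dotted diagonal the ratio would not change. Most red points lie straight below the centre (73 called only in cytoplasm), while blue points form an arm upward (72 called only in cytoplasm) and an arm to the left (46 called only in nuclei); DTA2 and AT1G29710, with no read in Col-0 cytoplasm, are not drawn.

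Several genes with a higher ratio in mos11 changed in both fractions at once. UBC11 (AT3G08690), a ubiquitin-conjugating enzyme gene, was the largest of these. It measured 12.1, 11.6, 10.1, 11.6 and 14.5 CPM in mos11 nuclei, against 5.64, 6.89, 6.84 and 5.97 CPM in Col-0 nuclei. The cytoplasmic libraries gave 18.4, 20.6, 24.5, 20 and 24.6 CPM in mos11, against 59.1, 97.9, 48.8 and 62.7 CPM in Col-0. The groups were apart in both fractions, with mos11 higher in nuclei and lower in cytoplasm, so that a cytoplasmic excess of 1.81-fold in mos11 stood against 10-fold in Col-0. Its ratio change was 2.47 ± 0.27 (adjusted p = 6.1e-06, edgeR), and it lay 2.12 above the line.

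The TOUCH genes are known for their rapid induction by mechanical stimulation. TCH3 (AT2G41100), a calmodulin-like protein gene, measured 217, 192, 210, 225 and 255 CPM in mos11 nuclei, against 236, 241, 191 and 120 CPM in Col-0 nuclei. In cytoplasm it measured 152, 155, 162, 215 and 243 CPM in mos11, against 615, 409, 1079 and 423 CPM in Col-0. The nuclear ranges overlapped, and every mos11 cytoplasm was below every Col-0 cytoplasm. The ratio change was 1.94 ± 0.31 (adjusted p = 0.00122, edgeR), called in every fit. TCH2, another calmodulin-like gene, changed by 1.43 ± 0.29 (adjusted p = 0.0109, edgeR), with 31.8 to 53.7 CPM in mos11 nuclei and 12.9 to 30 CPM in Col-0 nuclei. TCH4, a cell wall enzyme gene, was not called at 1.25 ± 0.44 (adjusted p = 0.152). In the list of 20 tested jasmonate and touch genes TCH3 and TCH2 were the only 2 called (10%), against 0.660% called higher over all genes tested. The list's median change was 0.06 against -0.091 over all genes.

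The early stress transcription factors, genes that answer many stimuli within minutes, had 3 of 20 members called higher (15%), against 0.660% of all genes tested. Their median change was 0.50, and 19 of 20 changes were above 0, against 6887 of all 16207. The list took 0.154 to 0.159% of counts in mos11 nuclei and 0.0637 to 0.117% in Col-0 nuclei, with overlapping shares in cytoplasm. AT5G51190, an ERF/AP2 factor gene, measured 27.8, 28.3, 31.1, 17.8 and 18.6 CPM in mos11 nuclei, against 5.38, 7.08, 4.93 and 4.38 CPM in Col-0 nuclei. Its cytoplasmic values were 26.5, 20.6, 30.6, 34.4 and 28 CPM in mos11, against 43.2, 49.0, 12.2 and 8.96 CPM in Col-0. Nuclear levels were apart, with mos11 higher, while the Col-0 cytoplasm libraries lay on both sides of the mos11 ones. Its change of 2.09 ± 0.45 (adjusted p = 0.019, edgeR) fell to 1.66 (adjusted p = 0.104) without Col-0 cytoplasm replicate 1 and to 1.80 (adjusted p = 0.0515) without Col-0 cytoplasm replicate 2. Limma voom gave an adjusted p of 0.174. ERF6, at 1.63 ± 0.40 (adjusted p = 0.035, edgeR), was called lower in mos11 cytoplasm at -0.98 (adjusted p = 0.0276) and not called in nuclei at 0.65 (adjusted p = 0.0938). NAC062, at 0.89 ± 0.24 (adjusted p = 0.0499, edgeR), was called higher in mos11 nuclei at 0.49 and not called in cytoplasm at -0.40. Both lost the call with limma voom and, in 10 and 17 of 18 edgeR fits, without 1 library.

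AT3G10020, a gene annotated without a named function, also had its change in cytoplasm. It measured 331, 265, 245, 388 and 371 CPM in mos11 cytoplasm, against 1162, 760, 1611 and 1149 CPM in Col-0 cytoplasm. No mos11 library came near the Col-0 range there, and in nuclei the ranges were 56.5 to 70.7 CPM in mos11 and 47.2 to 80.2 CPM in Col-0. The ratio change was 1.84 ± 0.24 (adjusted p = 9.2e-05, edgeR). G6PD3, a glucose-6-phosphate dehydrogenase gene of the pentose phosphate pathway, measured 2.42 to 7.77 CPM in mos11 cytoplasm and 25.7 to 52.7 CPM in Col-0 cytoplasm, and its ratio changed by 2.40 ± 0.42 (adjusted p = 0.00344, edgeR). A gene on the other strand overlaps it.

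RAB18 (AT5G66400), a dehydrin gene known as an abscisic acid and drought marker, changed by 2.16 ± 0.51 (adjusted p = 0.0293, edgeR). It was the 1 call in the list of 24 drought, salt and cold genes (4.17%), against 0.660% called higher over all genes tested. It measured 164, 161, 113, 169 and 161 CPM in mos11 cytoplasm, against 913, 412, 142 and 975 CPM in Col-0 cytoplasm. Col-0 cytoplasm replicate 3 lay within the mos11 range, and the same replicate was lowest in Col-0 nuclei at 6.84 CPM. The call was lost in 6 of 18 fits without 1 library, with an adjusted p of up to 0.0822, and with limma voom at 0.147. NCED3, the enzyme that limits abscisic acid synthesis, is not in that list and went the other way, at -1.39 ± 0.36 (adjusted p = 0.0435, edgeR), with 11.8 to 17.0 CPM in mos11 nuclei and 23.8 to 33.6 CPM in Col-0 nuclei; its call was lost in 13 of 18 such fits, with size-factor scaling (adjusted p = 0.053) and with limma voom (0.129).

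**Figure D3:**
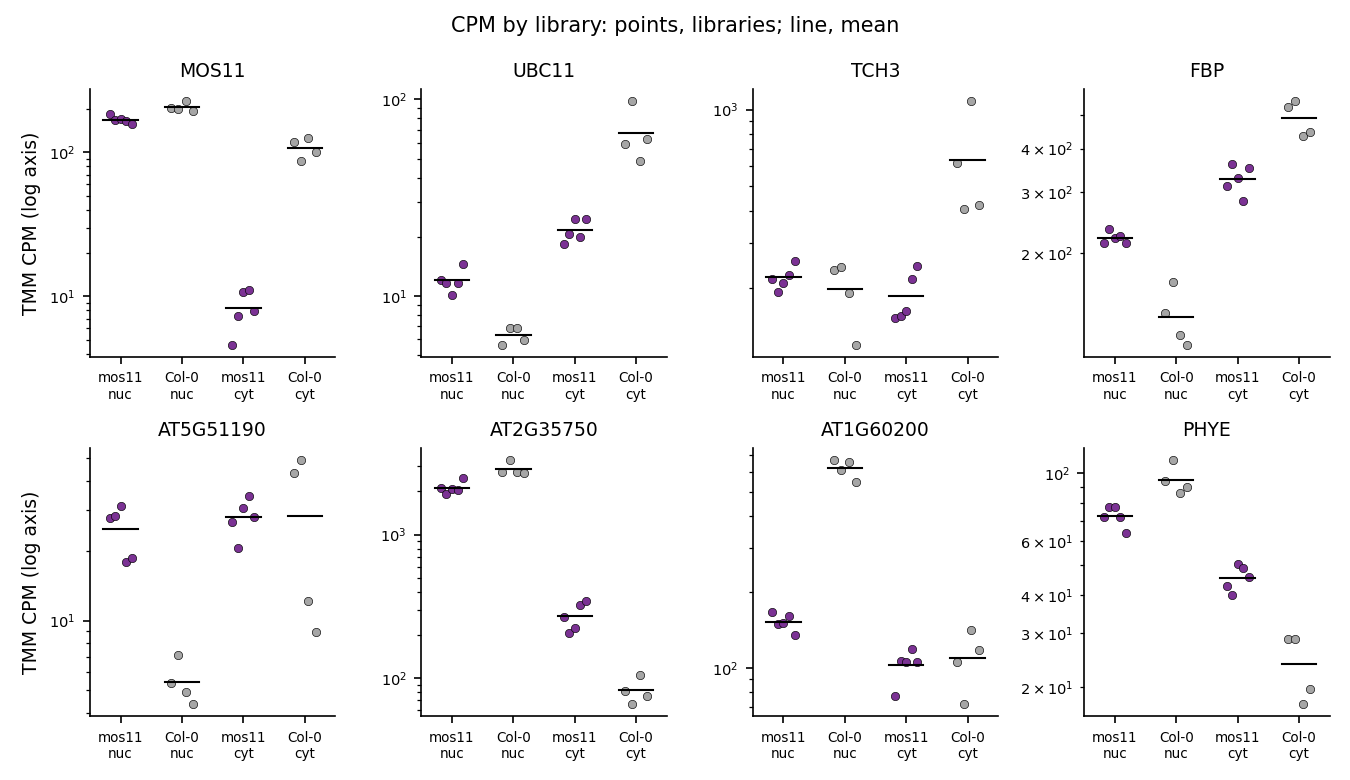
CPM of 8 genes in every library, on a log axis, in the order mos11 nuclei, Col-0 nuclei, mos11 cytoplasm and Col-0 cytoplasm; each point is a library. MOS11, TCH3 and AT2G35750 separate the genotypes mainly in cytoplasm, AT5G51190 and AT1G60200 mainly in nuclei (17.8 to 31.1 against 4.38 to 7.08 CPM for AT5G51190), and UBC11 and FBP in both with opposite signs.

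The genes of the photosynthetic antenna and of photosystem I form the list with the most calls among those examined. A higher ratio in mos11 was called for 17 of 33 (51.5%) and a lower one for none, against 0.660% and 0.919% over all genes tested. Changes above 0 numbered 29 of 33, against 6887 of all 16207. The called members had a mean log2 CPM of 8.655 to 12.68, against a median of 4.467 over all genes tested and 7.89 over the higher calls. Small changes are called more readily at such levels, and the part of this in the count was not tested. The light-harvesting proteins of this list capture light for the reaction centres, and the PSA proteins are subunits of photosystem I. The list's median change was 0.54, against -0.091 over all genes tested. All 33 transcripts were cytoplasmic in Col-0, and 28 were called lower in mos11 cytoplasm. In nuclei 12 were called, all of them lower in mos11 except AT1G76570. Together they took 10.3 ± 0.401% of cytoplasmic counts in mos11 and 14.1 ± 0.536% in Col-0, and 1.93 ± 0.0611% of nuclear counts in mos11 and 2.33 ± 0.139% in Col-0 (SD, n = 5 and 4), with no overlap in either fraction.

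PSAF (AT1G31330), the photosystem I subunit that docks plastocyanin, had the clearest change of them. It measured 506, 511, 489, 476 and 517 CPM in mos11 nuclei, against 508, 548, 398 and 493 CPM in Col-0 nuclei. The cytoplasmic libraries gave 4941, 4531, 4579, 4636 and 4930 CPM in mos11, against 9516, 7964, 8698 and 8302 CPM in Col-0. Nuclear levels overlapped and cytoplasmic levels were far apart, giving a ratio change of 0.91 ± 0.13 (adjusted p = 0.000314, edgeR). PSAK changed by 0.88, PSAO by 0.83 and, chosen after their values were seen, LHCB2.3 by 0.85 and LHCA3 by 0.64, all called. The 4 members with changes below 0 were CAB1 at -0.57, CAB3 at -0.46, CAB2 at -0.20 and LHB1B2 at -0.04, none called. As near-identical copies they may share reads, and their values are uncertain. The same holds of similar copies among the called members, such as LHCB2.1 at 0.54 and LHCB2.2 at 0.57, chosen after their values were seen. Calls of such copies are not independent.

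None of the 33 lay above the line, and 3 lay below it: CAB1 at -0.90, CAB3 at -0.80 and PSAG at -0.48, named here after their values were seen. Their median distance from it was 0.09. The count of called members ranged from 8 to 19 with single libraries left out, the lowest without mos11 cytoplasm replicate 4, was 11 under either other filter on low counts, and was 0 against a minimum change of 1.5-fold.

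**Figure D4:**
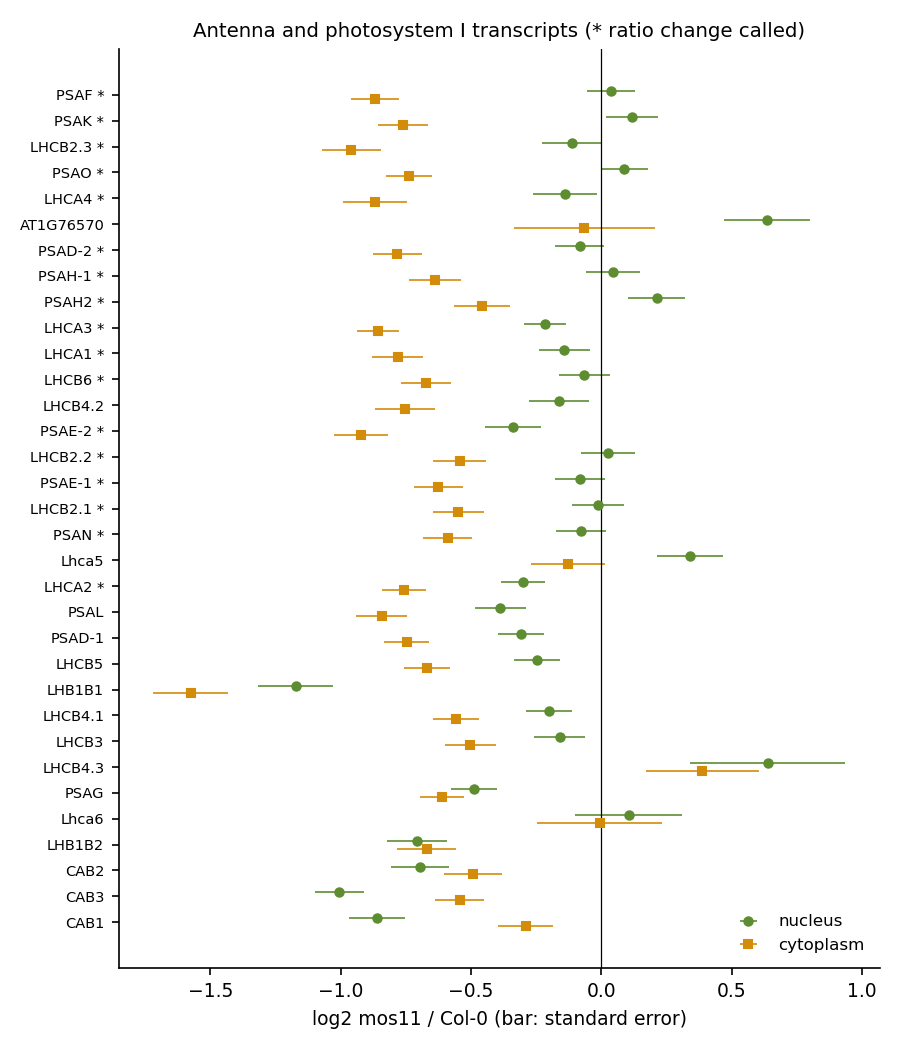
The 33 antenna and photosystem I genes with their log2 level in mos11 over Col-0 in nuclei and in cytoplasm, bars giving 1 standard error; a star marks a called ratio change. Cytoplasmic points lie below 0 for 28 genes by test, and 12 genes were called in nuclei, all of them lower in mos11 except AT1G76570. PSAF has -0.87 in cytoplasm and 0.04 in nuclei. CAB1 and CAB3, at the other end, lie further from 0 in nuclei (-0.86 and -1.01) than in cytoplasm (-0.29 and -0.54).

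FBP (AT1G43670), the cytosolic fructose-1,6-bisphosphatase of sucrose synthesis, measured 214, 234, 221, 224 and 214 CPM in mos11 nuclei, against 135, 166, 116 and 109 CPM in Col-0 nuclei. In cytoplasm it measured 311, 362, 329, 283 and 351 CPM in mos11, against 527, 547, 435 and 446 CPM in Col-0. The genotypes were apart in both fractions in opposite directions, and the change was 1.33 ± 0.17 (adjusted p = 5.2e-05, edgeR). PSI-P, a thylakoid protein also called CURT1B, changed by 0.86 ± 0.16 (adjusted p = 0.00463, edgeR) with 0.43 in nuclei and -0.43 in cytoplasm. NdhU, a subunit of the chloroplast NDH complex, changed by 1.53 ± 0.34 (adjusted p = 0.0225, edgeR), with an adjusted p of 0.0624 without Col-0 cytoplasm replicate 1. GSTF8, a stress-induced glutathione transferase gene, changed through nuclei: it measured 145 to 175 CPM in mos11 nuclei and 50.4 to 99.6 CPM in Col-0 nuclei, for a change of 1.21 ± 0.19 (adjusted p = 0.000963, edgeR), and AT2G47720 overlaps it on the same strand.

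Of the 25 tested dark and carbon starvation genes, TPS8, a trehalose-phosphate synthase family gene, was the 1 called (4%), at 0.79 ± 0.20 (adjusted p = 0.035, edgeR). Over all genes tested 0.660% were called higher. The list's median change was 0.61 and 20 of 25 changes were above 0, while its share of nuclear counts was 0.494 to 0.673% in mos11 and 0.743 to 1.45% in Col-0. The TPS8 call was lost in 9 of 18 fits without 1 library and with limma voom (adjusted p = 0.151). The list stands for genes whose RNA rises when sugar runs low, and its share of cytoplasmic counts was 0.119 to 0.158% in mos11 and spread from 0.176 to 0.93% in Col-0. The part of that spread in its ratio changes was not tested.

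The glycine-rich protein gene AT1G67870 measured 71.4 to 87.2 CPM in mos11 nuclei and 38.4 to 49.7 CPM in Col-0 nuclei, and 651 to 737 CPM in mos11 cytoplasm and 806 to 898 CPM in Col-0 cytoplasm. The genotypes were apart in both fractions, and the change was 1.12 ± 0.14 (adjusted p = 7e-05, edgeR). In 3 neighbouring genes on chromosome 4 the ratio was higher together: AT4G22505 by 1.31 ± 0.19 (adjusted p = 0.000472, edgeR) and, chosen after their values were seen, AT4G22485 by 1.33 and AT4G22517 by 1.51. They are similar copies that may share reads, so they are not independent.

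Short promoter motifs were looked for once the called genes were known. The motif AAATATCT is the evening element of clock-controlled genes, AAAATATCT, without its first base. In the 250 bases before the annotated start, on either strand, it occurred in 10.3% of the genes with a higher ratio (11 of 107). It occurred in 2.68% of those with a lower ratio and 4.84% of all 16206 windows. The full element was not counted. The G-box core CACGTG occurred in 14%, 8.72% and 7.5%, GATAAG in 20.6%, 9.40% and 12.5%, and the TATA motif TATAAA in 42.1%, 44.3% and 45.8% of the same sets. CGCGTT and GCCGCC were the other motifs searched and occurred in 3.74%, 2.68% and 2.7%, and in 0.935%, 2.01% and 1.94%. A match says only that these letters are present. Windows follow from the RefSeq TAIR10.1 assembly, each on the gene's own strand with AAATATCT or its complement in capitals. They show where the motif lies in RAB18 and, chosen after their values were seen, in the clock-output gene CCL (ratio change 1.49, adjusted p = 0.00363, edgeR) and the chlorophyll synthesis gene PORB (1.19, adjusted p = 0.0244, edgeR).
RAB18, chr5:26519448-26519697, minus strand: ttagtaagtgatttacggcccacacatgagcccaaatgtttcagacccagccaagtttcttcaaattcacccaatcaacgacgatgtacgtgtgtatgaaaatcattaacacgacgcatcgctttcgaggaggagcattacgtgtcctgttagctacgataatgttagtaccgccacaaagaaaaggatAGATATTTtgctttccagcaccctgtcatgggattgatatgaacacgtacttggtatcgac
CCL, chr3:9827432-9827681, plus strand: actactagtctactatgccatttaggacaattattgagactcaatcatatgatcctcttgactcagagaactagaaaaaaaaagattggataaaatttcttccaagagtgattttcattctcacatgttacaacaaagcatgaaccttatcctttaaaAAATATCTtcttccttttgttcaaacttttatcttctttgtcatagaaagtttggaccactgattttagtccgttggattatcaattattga
PORB, chr4:13725296-13725545, plus strand: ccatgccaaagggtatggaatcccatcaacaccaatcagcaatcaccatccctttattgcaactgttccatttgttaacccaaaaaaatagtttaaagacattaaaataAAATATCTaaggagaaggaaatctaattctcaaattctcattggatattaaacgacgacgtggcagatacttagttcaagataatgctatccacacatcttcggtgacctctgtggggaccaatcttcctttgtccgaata

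The first base of the motif lies 61 bases before the start in RAB18, 92 in CCL and 141 in PORB, and it is read as the complement AGATATTT in RAB18.

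Among the lower ratios, AT2G35750, a gene of 1 exon at 15029829 to 15030348 on chromosome 2, had the smallest p-value. It measured 2111, 1910, 2095, 2032 and 2484 CPM in mos11 nuclei, against 2722, 3290, 2754 and 2685 CPM in Col-0 nuclei. Its cytoplasmic values were 265, 208, 225, 322 and 346 CPM in mos11, against 81.5, 66.2, 106 and 75.3 CPM in Col-0. Both fractions were apart, with mos11 lower in nuclei and higher in cytoplasm. The nuclear level was 7.76 times the cytoplasmic in mos11 and 34.1 times in Col-0, a change of -2.14 ± 0.20 (adjusted p = 4.4e-07, edgeR), and its distance from the line was -1.29.

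AT1G60200, annotated as a splicing factor with a PWI domain, changed through the nucleus alone. It measured 166, 150, 151, 161 and 135 CPM in mos11 nuclei, against 666, 608, 658 and 546 CPM in Col-0 nuclei. The cytoplasmic libraries gave 77.3, 106, 106, 119 and 105 CPM in mos11, against 105, 72.0, 141 and 118 CPM in Col-0. Nuclear RNA was 4.05-fold lower in mos11 with no overlap, and cytoplasmic levels overlapped. The ratio change was -1.89 ± 0.20 (adjusted p = 1.7e-06, edgeR).

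SAC3B, a component of the TREX-2 complex that links transcription to the nuclear pore, showed the same arrangement. It measured 83.3, 86.1, 75.4, 80.8 and 85.9 CPM in mos11 nuclei, against 159, 144, 194 and 170 CPM in Col-0 nuclei, and 26.6 to 52.1 CPM in mos11 cytoplasm, against 22.4 to 32.3 CPM in Col-0 cytoplasm. Its change was -1.31 ± 0.24 (adjusted p = 0.00474, edgeR), and limma voom gave an adjusted p of 0.0551. With MOS11 it was called among 24 mRNA export genes (4.17% in each direction), whose median change was -0.04. Among 19 SR splicing factor genes RS2Z32 was the 1 called (5.26%), at 0.58 ± 0.14 (adjusted p = 0.0357, edgeR), a call lost in 12 of 18 fits without 1 library. Over all genes tested 0.660% were called higher and 0.919% lower.

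PHYE, the phytochrome E photoreceptor gene, and PERK10, a receptor-like kinase gene, were called in every fit. PHYE measured 72.0, 77.4, 77.4, 71.9 and 63.9 CPM in mos11 nuclei, against 94.3, 110, 86.2 and 90.1 CPM in Col-0 nuclei. In cytoplasm it measured 42.7, 39.9, 50.6, 48.9 and 45.9 CPM in mos11, against 28.8, 28.8, 17.6 and 19.7 CPM in Col-0. The genotypes did not overlap in either fraction, with a change of -1.37 ± 0.22 (adjusted p = 0.00132, edgeR), although AT4G18140 overlaps the gene on the same strand. PERK10 measured 109 to 138 CPM in mos11 nuclei and 238 to 438 CPM in Col-0 nuclei, for a change of -1.62 ± 0.27 (adjusted p = 0.00134, edgeR).

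SS4, a starch synthase gene that acts in starting starch granules, changed by -2.32 ± 0.43 (adjusted p = 0.00537, edgeR). It measured 10.4, 19.4, 41.4, 26.6 and 23.5 CPM in mos11 cytoplasm, against 9.59, 0, 6.78 and 7.17 CPM in Col-0 cytoplasm. All mos11 values were higher, the nearest by little. They rest on few reads, 9, 16, 27, 24 and 21 in mos11 cytoplasm and 6, 0, 5 and 4 in Col-0 cytoplasm. AT2G39580, annotated as a zinc finger C3H1 domain protein, measured 299 to 335 CPM in mos11 nuclei and 450 to 572 CPM in Col-0 nuclei. In cytoplasm it measured 18.9 to 27.6 CPM in mos11 and 5.38 to 20.2 CPM in Col-0, where the ranges overlapped. Its Col-0 cytoplasm libraries held few reads, at 6, 7, 5 and 3. Its change was -1.96 ± 0.30 (adjusted p = 0.000732, edgeR).

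Some transcripts with a lower ratio were cytoplasmic already and became more so. HSC70-1 (AT5G02500), a constitutive cytosolic HSP70 chaperone gene, measured 3854, 4086, 3654, 3129 and 3322 CPM in mos11 cytoplasm, against 2584, 2696, 2229 and 2324 CPM in Col-0 cytoplasm. The nuclear ranges were 432 to 493 CPM in mos11 and 469 to 482 CPM in Col-0, so the groups were apart in cytoplasm only. Its change was -0.57 ± 0.13 (adjusted p = 0.0246, edgeR), with an adjusted p of 0.0501 without mos11 cytoplasm replicate 2, and it lay at -0.79 from the line (adjusted p = 0.000971). It was the 1 call among 16 tested heat shock genes (6.25%), against 0.919% called lower over all genes tested. The median change of these 16 genes was -0.51, and 3 changes were above 0. The list took 0.364 to 0.436% of cytoplasmic counts in mos11 and 0.196 to 0.262% in Col-0.

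AT4G04565 measured 87.9 to 117 CPM in mos11 nuclei and 167 to 234 CPM in Col-0 nuclei, while cytoplasm held 3267 to 4203 CPM in mos11 and 2813 to 3494 CPM in Col-0. Its cytoplasmic excess of 36.0-fold in mos11 stood against 16.6-fold in Col-0, a change of -1.12 ± 0.16 (adjusted p = 0.000391, edgeR) and -1.56 from the line (adjusted p = 5.5e-07). In the clock list of 14 genes LHY, a morning-phased transcription factor, was the 1 called (7.14%), at -0.96 ± 0.22 (adjusted p = 0.0266, edgeR). Over all genes tested 0.919% were called lower. LHY measured 137 to 167 CPM in mos11 nuclei and 76.6 to 121 CPM in Col-0 nuclei, and 208 to 247 CPM in mos11 cytoplasm and 47.4 to 109 CPM in Col-0 cytoplasm. It was higher in mos11 in both fractions without overlap, more so in cytoplasm; the adjusted p was 0.0544 without Col-0 nucleus replicate 4 and 0.0584 with limma voom.

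For 12 genes the ratio was called on opposite sides of 1 in the genotypes, 4 nuclear in mos11 and cytoplasmic in Col-0, and 8 the reverse. AT3G11230, annotated as a Yippee family zinc-binding protein, measured 24.9 to 30.7 CPM in mos11 nuclei and 20.7 to 25.9 CPM in Col-0 nuclei, and 13.3 to 21.9 CPM in mos11 cytoplasm and 25.6 to 46.6 CPM in Col-0 cytoplasm. Its nuclear level was 1.55 times the cytoplasmic in mos11 and 0.635 times in Col-0, a change of 1.29 ± 0.26 (adjusted p = 0.0109, edgeR). AT5G04325 went the other way, with 0.451 times in mos11 and 1.70 times in Col-0, a change of -1.92 ± 0.34 (adjusted p = 0.00363, edgeR). It measured 26.4 to 65.3 CPM in mos11 nuclei and 175 to 244 CPM in Col-0 nuclei. Both, and AT2G35050 at -0.90 ± 0.19, were called in every fit; the other turned genes named lost the call in at least 1.

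The largest fitted decreases rested on few reads. Of the 149 genes with a lower ratio, 10 had at most 3 reads in Col-0 cytoplasm summed over its 4 libraries, and 27 had at most 20. Their medians were 188 reads in mos11 cytoplasm and 67 in Col-0 cytoplasm. Among all 16207 genes tested, 1084 had at most 3 reads there and 5298 at most 20, so few reads were not particular to the lower ratios. None of the 107 genes with a higher ratio had so few. CYP72A14, a cytochrome P450 gene, had 33 reads in mos11 cytoplasm and 1 in Col-0 cytoplasm, a ratio of levels of 18.1 with an exact 95% counting interval of 3.03 to 736. PIP5K5, a phosphatidylinositol phosphate kinase gene, had 41 reads in mos11 cytoplasm and 3 in Col-0 cytoplasm, a ratio of 7.49 (2.39 to 37.8), and its ratio change of -3.41 ± 0.70 (adjusted p = 0.0116, edgeR) became -8.78 without Col-0 cytoplasm replicate 1, which held all 3 reads. Likewise CYP72A14 became -7.72 without Col-0 cytoplasm replicate 2, AT3G11720 -7.56 without replicate 1, AT1G35510 -7.53 without replicate 3 and AT5G22850 -3.94 without replicate 3, so only the direction of these changes can be read. CYP72A14, AT3G11720 and AT1G35510 lost the call in 8, 6 and 3 of 18 fits without 1 library, and PIP5K5 in none. DTA2 had 19 reads in mos11 cytoplasm and 0 in Col-0 cytoplasm; counted against 3 reads over the group, its nuclear level was at least 17.6-fold the cytoplasmic in Col-0 (a log2 ratio of at least 4.14, against 1.61 in mos11), and its call was lost with limma voom.

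The sets differed in transcript length. Genes with a higher ratio in mos11 had a median transcript length of 1327 bases and 3 exons, genes with a lower ratio 3235 bases and 8 exons, and all genes tested 1835 bases and 5 exons. GC content differed little, with medians of 41.5%, 42.0% and 41.4%. From the shortest to the longest quartile of transcripts, the calls were 58, 33, 13 and 3 higher and 8, 7, 26 and 108 lower, and the median change was 0.13, -0.02, -0.13 and -0.30. The Col-0 ratio followed length too, with a median of -1.24 in the shortest quartile and 1.23 in the longest. Against the line the calls were more even, at 20, 33, 17 and 9 higher and 14, 12, 14 and 21 lower.

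**Figure D5:**
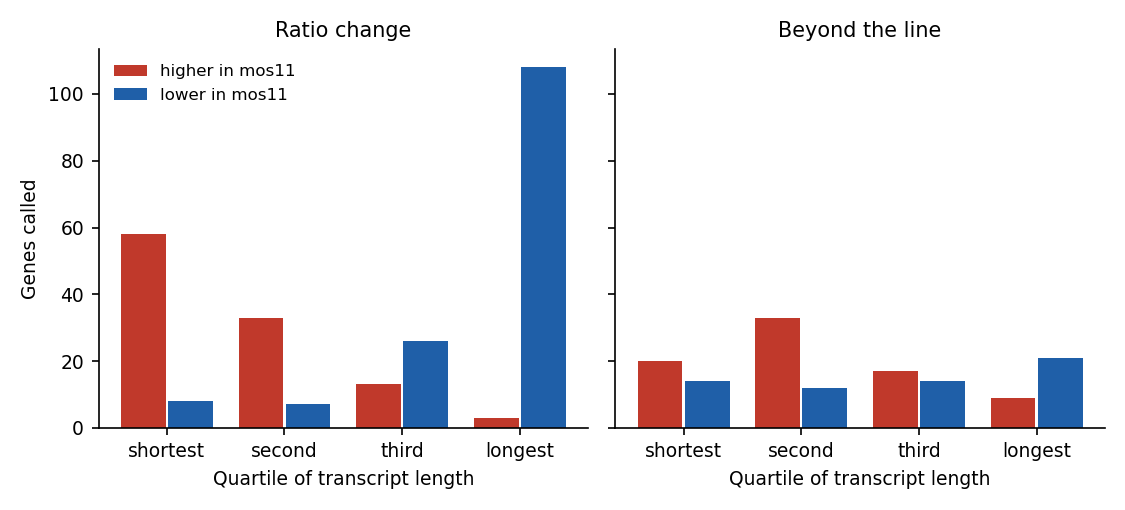
Number of genes called in each quartile of transcript length (limits at 1359, 1835 and 2443.5 bases), for the ratio change and for the distance from the line; red bars count higher and blue bars lower values in mos11. For the ratio change 58 of the higher calls are in the shortest and 108 of the lower calls in the longest quartile, while the calls against the line are spread over all quartiles.

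A few very long transcripts, chosen after their values were seen, give the size of the change. BIG, a calossin-like protein gene with a transcript of 15700 bases, changed by -0.56 (adjusted p = 0.0485, edgeR), and SYD, a chromatin-remodelling ATPase gene of 11033 bases, by -0.62. DCL1, the Dicer enzyme of microRNA processing, changed by -0.89 and INO80, another chromatin-remodelling ATPase gene, by -1.23. All were called with a lower ratio in mos11.

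The remaining lists held few calls or none, and over all genes tested 0.660% were called higher and 0.919% lower. No member was called among 18 salicylic acid and immunity genes, 16 shade response genes, 26 NLR and TIR-domain genes, 19 translation factor genes, 18 anthocyanin and light protection genes, 27 ubiquitin, actin and tubulin genes or 16 metallothionein and cyclophilin genes. Against the line, NPR3, a salicylic acid receptor gene, lay at 1.11 (adjusted p = 0.027) and SAG101, a partner of EDS1 in immunity, at 1.32 (adjusted p = 0.042), and MT2B, a metallothionein gene named after its values were seen, at -0.90 (adjusted p = 0.00677). Of 253 ribosomal protein genes 3 (1.19%) had a higher ratio and none a lower one, with a median change of 0.23. None of 34 histone genes was called. Among 171 long non-coding RNAs tested, 4 (2.34%) had a lower ratio and none a higher one, with a median change of -0.35. Long non-coding loci as a whole, tested or not, took 0.859 to 0.955% of nuclear counts in mos11 and 1.18 to 1.31% in Col-0. In cytoplasm they took 3.74 to 4.41% in mos11 and 3.91 to 5.28% in Col-0, where the shares overlapped.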

How the data were processed

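RNA from nuclear and cytoplasmic fractions was depleted of ribosomal RNA, sequenced with molecular identifiers in the reads, and deposited by the authors as 1 table of raw counts per gene, with 18 columns for 28 labelled samples because the libraries were run on 2 flow cells; whether a column sums both is not stated. ERCC spike-ins were added, per the labels' protocols, and were not used here. Per the submitters' processing notes, TAIR10 was the build, and featureCounts, UMI-tools, Picard and STAR (2.7.8a) were among the tools; their settings are not stated. Since each library is scaled to its own total, a shift common to all transcripts is not measured.

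All 18 libraries were fitted with edgeR 4.0.16 (R 4.3.3; TMM factors, filterByExpr, quasi-likelihood F test, 1 coefficient per group), and the contrast was the log2 nucleus-to-cytoplasm difference in mos11 minus that in Col-0. Standard errors were taken from the change and its F value. P-values were adjusted by Benjamini and Hochberg over all 16207 genes, with a threshold of 0.05. CPM are the counts after TMM scaling by library. The line is the major axis of mos11 on Col-0 ratios over genes whose mean log2 CPM was 3 or more; distance from it was tested in the same model, taking the line as fixed. DESeq2 1.42.0 and limma 3.58.1 (voom with group weights), other filters and scalings, a replicate block and leaving out libraries were alternatives. The edgeR model used an estimate of spread shared by all groups, while the group weights of voom let the spread differ between groups. Gene positions, lengths and promoters come from RefSeq TAIR10.1; all 30901 loci matched.

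Genes were named by rule: the 10 largest called changes each way with the same minimum; MOS11; up to 3 per list by p; up to 6 each way called on opposite sides of 1; up to 5 each way called also against the line; up to 5 each way called oppositely in the fractions. Genes outside it are marked in the text, or named as the members of a count or of an overlap. The members and lists were chosen with earlier results of these data known. Intervals cover counting error only, at 95%.

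Same-numbered nuclear and cytoplasmic libraries deviated together by correlations of 0.17 to 0.54 in Col-0, all 4 over 0.1. In mos11 the correlations were 0.02 to 0.12, not all over 0.1. The numbers therefore pair the Col-0 fractions, from the data and not from a label. For mos11 the pairing was not decided, although 6 of 10 libraries correlated best with their own number. The spread there was 6.16% in nuclei and 10.8% in cytoplasm, and its part in the low correlations was not tested. The fit without pairs is the one reported, with the block beside it.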

Additional observations from a re-analysis of the deposited data

Results flagged for a closer look

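The ratio change itself is a difference between the genotypes by an interaction term, passed by 107 genes in the direction of a higher and 149 in the direction of a lower ratio in mos11. For 30 named genes, 119 groups of libraries were examined for 1 that stands apart, and 13 held one; chance marks about 1 group in 20.

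In mos11 libraries, RAB18 was lowest in cytoplasm replicate 3 at 113 CPM, against 161 to 169 CPM in the other 4. SAC3B was highest in the same library at 52.1 CPM, against 26.6 to 32.2 CPM. PIP5K5 was highest in cytoplasm replicate 4 at 15.5 CPM, against 6.72 to 9.22 CPM. Nucleus replicate 2, the deepest library, was highest for ERL2 at 23.1 CPM (19.5 to 20 CPM in the others), for LHY at 167 CPM (137 to 143 CPM) and for TCH2 at 53.7 CPM (31.8 to 35 CPM).

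In Col-0 libraries, 4 of the 7 cases are genes whose cytoplasmic reads all came from 1 library: CYP72A14 with 2.88 CPM in replicate 2, AT3G11720 with 1.6 CPM in replicate 1, AT1G35510 with 1.36 CPM in replicate 3 and PIP5K5 with 4.79 CPM in replicate 1, against 0 in the others. PIP5K5 had 3 reads there, and CYP72A14, AT3G11720 and AT1G35510 had 1 read each. With 0 in the other libraries such a gene is always marked, so these cases say nothing of an outlying library and the chance rate above does not apply to them. In nuclei, AT1G35510 was highest in replicate 2 at 45.1 CPM (43.5 to 43.8 CPM in the others), AT2G14255 lowest in replicate 1 at 95.4 CPM (100 to 101 CPM) and RS2Z32 highest in replicate 3 at 126.2 CPM (115 to 116 CPM).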

How the results depend on the processing

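MOS11 was called in every alternative run, at 3.29 to 3.64 with single libraries left out. The counts of 107 higher and 149 lower ratios became 317 and 261 with DESeq2, 79 and 49 with limma voom, 5 and 3 against a 1.5-fold minimum, 180 lower among genes with at least 20 reads in each group (chosen after seeing the data), and 58 to 150 and 67 to 199 without 1 library; without both Col-0 replicate 3 libraries 164 were higher. Limma voom, with weights that let the spread differ between groups, kept 71 of the 107 higher and 45 of the 149 lower calls. The part of unequal spread in that loss was not tested. At an unadjusted p under 0.05 edgeR gave 909 higher and 1525 lower. The 79 and 61 calls against the line became 193 and 270 without both Col-0 replicate 3 libraries, 139 and 229 with the regression of mos11 on Col-0 ratios, 29 lower with that of Col-0 on mos11, and 26 to 168 and 27 to 209 without 1 library. The slope of 0.859 was 0.804 to 0.879 without 1 library, 0.808 without both Col-0 replicate 3 libraries and 0.918 with the regression of Col-0 on mos11 ratios. Antenna calls (17) were 8 to 19 without 1 library, 11 without a filter, 11 with at least 1 CPM in 8 libraries and 0 against 1.5-fold, alternatives added after seeing the data. Of 38 comparisons of list shares of counts, 21 passed, and 8 to 22 without 1 library. Counts moved by over 1.5 times without these single libraries: for higher ratios mos11 nucleus 2, 3 and 5, mos11 cytoplasm 2, 3 and 4 and Col-0 cytoplasm 4; for lower ratios mos11 nucleus 1, 2, 3 and 5, mos11 cytoplasm 4, Col-0 nucleus 4 and Col-0 cytoplasm 4; for antenna calls mos11 nucleus 2, 3 and 5, mos11 cytoplasm 2, 3 and 4, Col-0 nucleus 1 and Col-0 cytoplasm 4; and, against the line in either direction, all but mos11 cytoplasm 5 and Col-0 nucleus 1. The cause of these differences was not tested.

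With a replicate block within genotype the counts were 326 and 303, and 335 and 255 against the line; across groups, 111 and 118, and 99 and 75. The block within genotype changed no call of the 53 genes named by rule. Best correlations were with a library's own number for 6 of 10 mos11 and 7 of 8 Col-0 libraries. Cytoplasmic libraries, of at most 1280371 counts, limit precision: 5298 of the genes tested had at most 20 reads in Col-0 cytoplasm.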
